A study of Mus musculus with 11 samples.

Results

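WNT signalling genes were described here in fluorescent adrenocortical cells of fetal mice with and without Star, whose product moves cholesterol into mitochondria, where steroid synthesis starts. The set holds 10 genes, namely the ligand gene Wnt4, the R-spondin genes Rspo1 and Rspo3, the secreted factor gene Dkk3, and Apcdd1, Znrf3, Axin2, Nkd1, Ctnnb1 and Lef1. They were chosen by name as WNT feedback genes and their partners, with earlier results of these data known. Every probe whose RefSeq accession belonged to them was taken, 11 of the 41174 probes on the array. Ctnnb1 had 2 probes and each of the others had 1. All 10 genes passed the filter on dim signals, and were tested among 20763 genes and unnamed probes.

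Each of the 11 single-colour arrays held linearly amplified RNA of 1 mouse embryo, taken late in gestation (E17.5-18.5). The groups were 7 Star+/+ mice, labelled 3 male and 4 female, and 4 Star-/- mice, all labelled male. In both groups the cells had been dissociated from whole adrenal glands and sorted for enhanced green fluorescent protein (eGFP). The labels name no promoter for the reporter, nor the deleted part of Star. Slide 1 held wild-type arrays 1 and 2 with knockout arrays 1 and 2, slide 2 held wild-type array 3 with knockout arrays 3 and 4, and slide 3 held wild-type arrays 4 to 7. Wild-type arrays 1, 2 and 7 were labelled male and wild-type arrays 3 to 6 female. Within slide 2, genotype and labelled sex thus cannot be told apart.

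WNT ligands bind Frizzled receptors with LRP co-receptors and keep β-catenin, the product of Ctnnb1, from being destroyed, so that it reaches DNA with factors of the LEF and TCF family. R-spondins raise the response by removing the ubiquitin ligases ZNRF3 and RNF43 from the cell surface. Axin2, Nkd1, Apcdd1, Znrf3 and Lef1 are themselves known targets of the pathway, and the first 4 act back on it as inhibitors. In the adrenal cortex WNT signalling is known from the outer zone under the capsule, where it supports the glomerulosa and the renewal of cortical cells.

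All values below are levels, meaning the log2 of the background-subtracted spot signal minus the 75th percentile of its array. Levels of different probes are not compared. Differences are knockout minus wild-type on the log2 scale, fitted with limma with slide as a term and given with their SE. The 4 knockout arrays are thus set against wild-type arrays 1, 2 and 3, while slide 3 adds only to the estimate of the spread. Adjusted p-values are over all features tested, with a threshold of 0.05.

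Several arrays stood apart before any comparison. The number of probes well above background ranged from 19071 to 26416. Wild-type array 3 was the dimmest, with a 75th percentile of 115 against 166 to 706 elsewhere, and correlated least with the rest (median r of 0.877). Wild-type array 4 was labelled female, yet the Y-linked gene Ddx3y was at 2.70 there, within the 2.26 to 3.32 of the arrays labelled male, and below background on the other arrays labelled female. Of the 8 adrenocortical markers looked at, all were above background on every array. The summed signal of 8 chromaffin cell markers, in units of the 75th percentile, lay between 1491 and 1979 on wild-type arrays 5, 6 and 7 and between 100.4 and 454 on the other wild-type arrays. The 10 capsule and stroma markers, 9 or 10 of them above background on each array, summed to between 1343 and 2239 on those 3 arrays and to between 311 and 598 on wild-type arrays 1 to 4. The transcript of Star itself differed by −4.70 ± 0.93, but its levels overlapped between genotypes and it missed the threshold (limma adjusted p = 0.0560).

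RefSeq promoters were at hand for 6 of the 10 genes, in the build GRCm38.p6. The 250 bases before the start are shown for Axin2 and Nkd1, the genes whose levels did not overlap between genotypes, and for the most upstream start of Lef1, which encodes a DNA-binding partner of β-catenin. Capitals mark the core letters CTTTG of the binding motif of LEF and TCF factors, searched on both strands.

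Axin2, chr11:108920099-108920348, plus strand: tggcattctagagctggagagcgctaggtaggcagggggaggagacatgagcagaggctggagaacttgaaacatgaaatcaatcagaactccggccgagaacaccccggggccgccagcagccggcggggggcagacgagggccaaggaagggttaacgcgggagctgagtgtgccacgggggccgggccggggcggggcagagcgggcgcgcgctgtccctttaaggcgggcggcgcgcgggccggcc
Nkd1, chr8:88527383-88527632, plus strand: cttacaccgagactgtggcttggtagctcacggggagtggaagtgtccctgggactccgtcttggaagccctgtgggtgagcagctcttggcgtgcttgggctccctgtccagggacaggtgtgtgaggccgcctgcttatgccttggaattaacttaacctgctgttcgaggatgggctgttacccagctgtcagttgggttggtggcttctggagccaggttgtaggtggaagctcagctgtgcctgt
Lef1, chr3:131110047-131110296, plus strand: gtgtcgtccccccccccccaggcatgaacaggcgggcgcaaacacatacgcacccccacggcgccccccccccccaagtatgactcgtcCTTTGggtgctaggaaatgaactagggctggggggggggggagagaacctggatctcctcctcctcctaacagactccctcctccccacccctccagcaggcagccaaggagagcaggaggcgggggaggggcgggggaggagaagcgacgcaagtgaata

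The Lef1 window holds the core once, with its first base 161 bases before the start, and the windows of Axin2 and Nkd1 do not hold it. The longer forms CTTTGAT and CTTTGAA, which contain the core, were found in 0 of the 10 windows of these genes, on either strand. Over all 32851 such windows in the table, 48.6% hold the core and 7.48% hold 1 or both of the longer forms. These are matches of letters in 250 bases and say nothing of sites elsewhere in the genes.

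Axin2 was lower in all 4 knockout arrays than in all 7 wild-type arrays. It encodes the scaffold of the complex that destroys β-catenin, and is among the best known direct targets of the pathway. Wild-type levels ran from −0.54 in array 2 through a median of 0.24 to 1.42 in array 3. Knockout levels were −2.55, −2.23, −2.67 and −2.07 in arrays 1 to 4. The lowest wild-type and the highest knockout level were thus more than 1 log2 unit apart, while the knockout levels spanned 0.61 units.

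The difference of Axin2 was −2.86 ± 0.44 (limma adjusted p = 0.0263), or 7.26-fold lower, with a 95% interval from 3.69-fold to 14.3-fold. Within slide 1 it was −2.24 and within slide 2 −3.79. Of the 10 genes, Axin2 was the one that passed the threshold, against 0.833% of all features tested, 0.231% lower and 0.602% higher in knockout arrays. The call depended on single arrays and on the processing. Without wild-type array 3 the difference was −2.24 at an adjusted p of 0.228, and without wild-type array 1 or any one of the knockout arrays the adjusted p lay between 0.0541 and 0.119. With sex as a further term it was −2.54 (adjusted p = 0.0946) and with median scaling −2.82 (adjusted p = 0.0530). With the replicate number as a term in place of slide, called the replicate block, it was −2.60 (adjusted p = 0.0655). That fit sets wild-type array 4 of slide 3 against knockout array 4 of slide 2.

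Markers of macrophages moved with the same contrast. All 9 markers on the array were above background on every knockout array, and 8 or 9 on each wild-type array. Their summed signal was 559 to 1468 in knockout and 43.2 to 361 in wild-type arrays, so the groups did not overlap. The summed signal of the adrenocortical markers was 312 to 961 in knockout and 231 to 3137 in wild-type arrays and overlapped. Within slide 1 it was 473 and 961 in knockout arrays against 859 and 1751 in wild-type arrays. Within slide 2 it was 312 and 810 in knockout arrays against 3137 in the wild-type array. The brightest markers weigh most in it. Differences within slide 2 were −2.50 for Akr1b7, −3.30 for Fdx1, −3.41 for Hsd3b1 and −1.69 for Fdxr. They were −0.21 for Mc2r, 0.0070 for Scarb1, 0.11 for Nr5a1 and 1.27 for Cyp11a1. The chromaffin sum was lower in the knockout arrays of both slides, at 77.8 and 148 against 186 and 454 in slide 1 and at 116 and 4.94 against 285 in slide 2. The part of these cells in the differences of the 10 genes was not tested, and in sorted cells pooled for RNA, fewer cells of a type and less RNA per cell cannot be told apart.

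**Figure D1:**
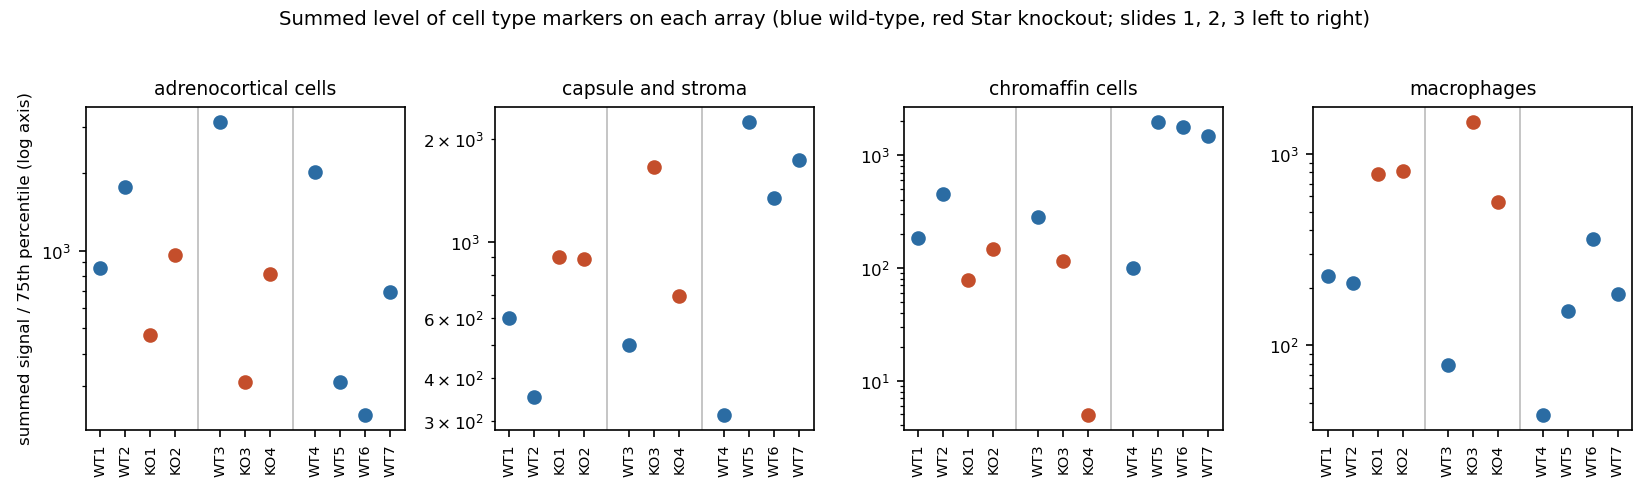
Summed signal of the markers of 4 cell types on each array (log axis, in units of the array's 75th percentile), with wild-type arrays in blue, Star knockout arrays in red and vertical lines between slides 1, 2 and 3. The macrophage sums of the 4 knockout arrays lie at 559 and above and those of the 7 wild-type arrays at 361 and below, while wild-type arrays 5, 6 and 7 carry the highest chromaffin sums.

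Nkd1, whose product binds Dishevelled and dampens the signal, was the other gene without overlap between genotypes. Its wild-type levels ran from 2.86 in array 2 through a median of 3.44 to 4.60 in array 3. Its knockout levels were 2.52, 2.73, 2.85 and 2.03. The gap between the groups was narrow, with knockout array 3 just under wild-type array 2. Non-overlap in the lower direction was found for 2 of the 10 genes and for 3.24% of all features tested, while 0 of the 10 were non-overlapping and higher, against 4.13%. The fitted difference was −1.17 ± 0.42 and did not pass (limma adjusted p = 0.201). Within slide 1 it was −0.50, as it also was once wild-type array 3 had been left out, and within slide 2 it was −2.16.

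Lef1 was above background on wild-type arrays 1 to 5, with levels of −3.01, −3.24, −2.78, −2.13 and −2.50, and on no knockout array. On wild-type arrays 6 and 7 it was not well above background either, with measured levels of −6.71 and −6.93. Measured knockout levels were −7.06, −5.75, −6.04 and −4.86, so the groups overlapped. Because it passed the filter through the wild-type arrays, its direction is partly fixed by that filter.

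From the group means over all arrays, a bound of 1.60-fold lower in knockout arrays was computed for Lef1. For this bound each knockout signal was set to the lowest signal above background on its array, or kept where it was higher, and sampling error was left out. Wild-type arrays 6 and 7 kept their measured levels though not well above background, so it is not a strict minimum. Computed within slides 1 and 2 the bound was 3.15-fold, and both bounds hold for the processed signals alone. The fitted difference was −3.03 ± 1.19 (limma adjusted p = 0.227), −3.28 within slide 1 and −2.67 within slide 2. With normexp background correction it was −1.11 ± 0.47 (adjusted p = 0.258), a smaller difference than the bound within slides.

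**Figure D2:**
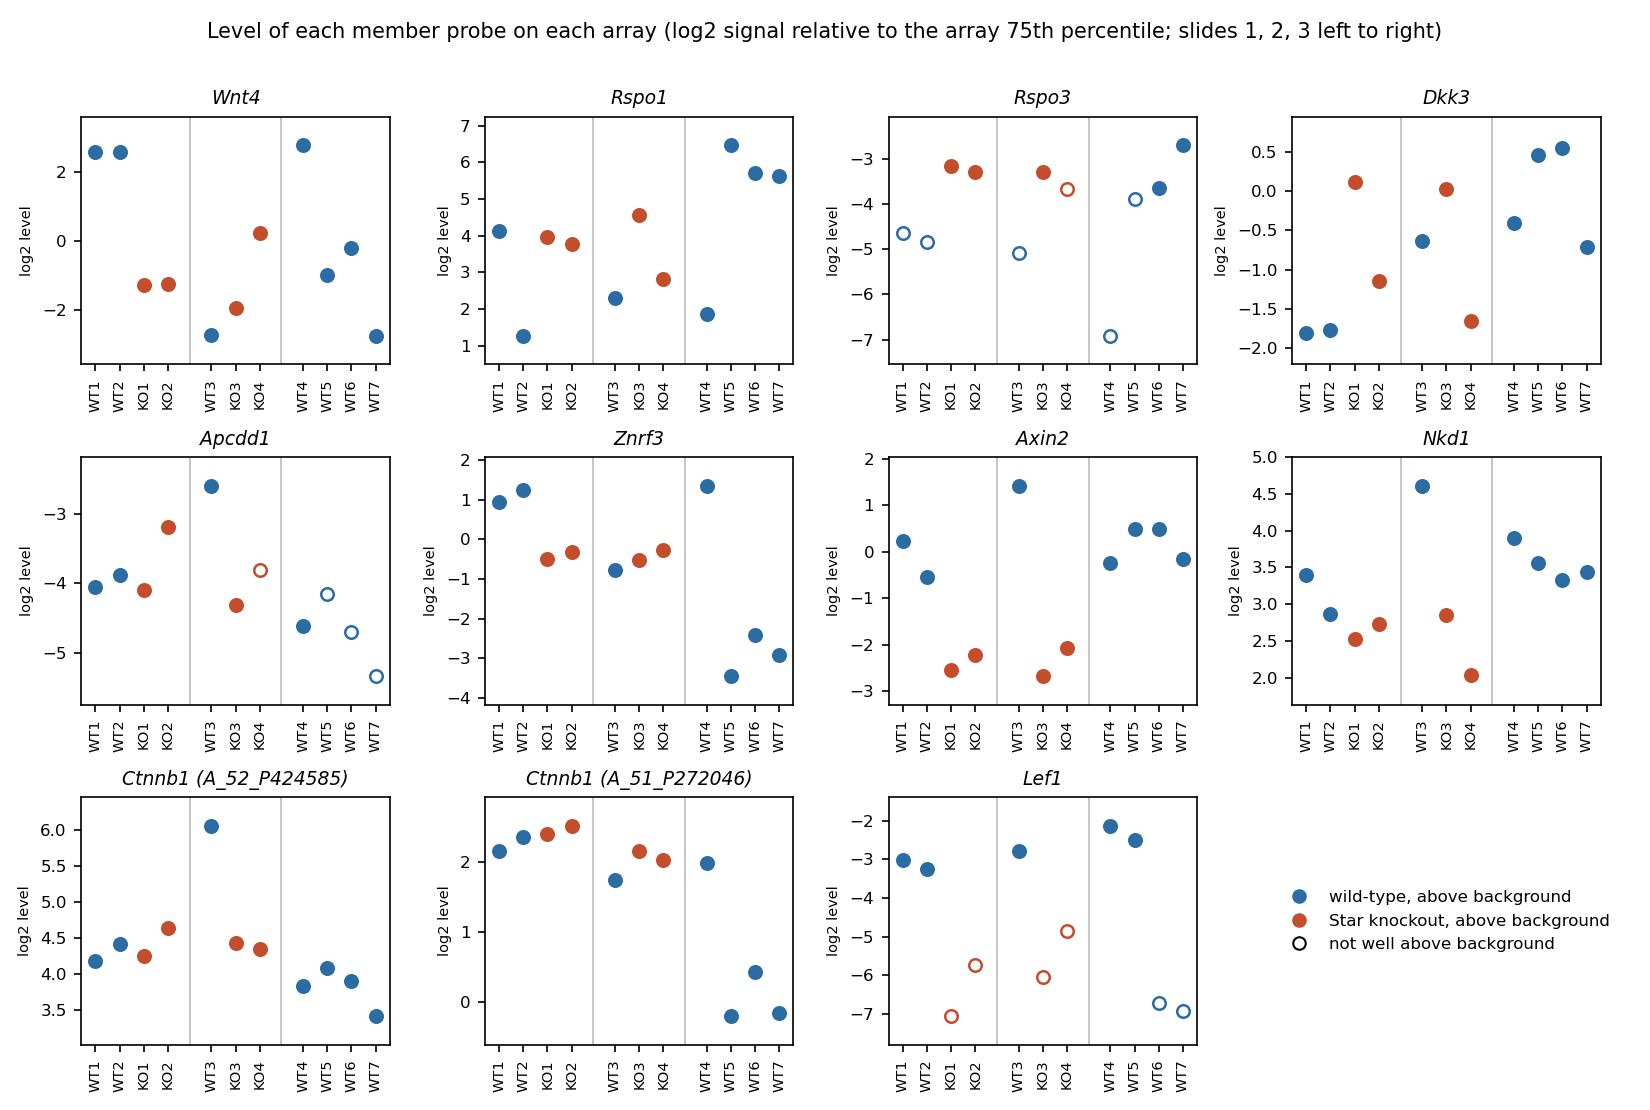
Level of each of the 11 probes on each array (log2 signal relative to the array's 75th percentile; each panel has its own axis), with wild-type arrays in blue, Star knockout arrays in red, open circles where the probe was not well above background and grey lines between slides. Axin2 and Nkd1 show all 4 knockout arrays below all 7 wild-type arrays, while Wnt4, Znrf3 and the probe A_51_P272046 of Ctnnb1 split the wild-type arrays of slide 3.

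Wnt4, the ligand gene of the set, is expressed in the outer cortex and is known to support adrenal development and aldosterone production. Its levels varied most among the wild-type mice. They were 2.57, 2.57 and 2.76 in arrays 1, 2 and 4, and −2.73, −0.99, −0.20 and −2.74 in arrays 3, 5, 6 and 7. Knockout levels were −1.28, −1.25, −1.94 and 0.23, inside the wild-type range. The SD among wild-type arrays was 2.47, and 3.06% of all features tested had a larger one.

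The slides gave opposite differences for Wnt4, −3.84 within slide 1 and 1.88 within slide 2. The fitted value of −1.55 ± 1.41 did not pass (limma adjusted p = 0.580), and its 95% interval ran from −4.70 to 1.60. Without wild-type array 3 it was −3.84 ± 1.51 (adjusted p = 0.725), and with weights estimated per array it was −3.49 ± 0.78 (adjusted p = 0.0249). The 3 wild-type arrays with high Wnt4 were also those with the most probes above background, 23675 to 25449 against 19071 to 22283 on the other wild-type arrays. The knockout arrays had 23537 to 26416 such probes. The part of array quality in the Wnt4 levels was not tested.

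The R-spondin genes, whose products are known from the adrenal capsule, had higher fitted levels in knockout arrays within both slides, without passing. Rspo1 levels ran from 1.28 in wild-type array 2 through a wild-type median of 4.13 to 6.46 in wild-type array 5. Its knockout levels of 3.98, 3.79, 4.56 and 2.82 lay inside that range. The difference was 1.26 ± 1.09 (limma adjusted p = 0.560), 1.18 within slide 1 and 1.38 within slide 2. Without the slide term, and so with slide 3 counted among the controls, it was −0.12.

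Rspo3 was dim. It was above background on wild-type arrays 6 and 7, at −3.65 and −2.71, and on knockout arrays 1 to 3, at −3.17, −3.29 and −3.30. Knockout array 4 measured −3.67, and the wild-type arrays without signal above background measured between −6.92 and −3.90. On wild-type arrays 1, 2 and 3, which set the difference, it was not above background. Its direction is partly fixed by the filter, which it passed only with knockout arrays counted. The fitted difference was 1.54 ± 0.83 (limma adjusted p = 0.352), with 1.51 and 1.59 within slides 1 and 2. With normexp background correction it was 0.0049 ± 0.46 (adjusted p = 0.996).

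Both R-spondin genes had their highest levels on slide 3. Rspo1 stood at 6.46, 5.70 and 5.63 on wild-type arrays 5, 6 and 7, the arrays with the high capsule and chromaffin sums, and at 1.87 on array 4 of the same slide. The capsule and stroma sum of array 4 was 311, the lowest of all arrays. In knockout arrays that sum was 696 to 1656, above the 311 to 598 of wild-type arrays 1 to 4. The brightest markers weigh most in such a sum. Gli1, Nr2f2 and Pdgfra had fitted differences of −0.07, −0.17 and −0.14, while those of the other listed capsule and stroma markers were positive. Whether the R-spondin differences follow the capsule and stroma markers was not tested.

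Dkk3 encodes a secreted member of the Dickkopf family whose action on WNT signalling is less settled than that of its relatives. Its levels ran from −1.80 through −0.64 to 0.54 in wild-type arrays and were 0.11, −1.14, 0.03 and −1.65 in knockout arrays. The knockout arrays were split, with 1 high and 1 low array on each slide. The difference was 0.69 ± 0.57 (limma adjusted p = 0.539), 1.27 within slide 1 and −0.17 within slide 2.

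The feedback inhibitors at the receptor did not pass. Apcdd1, a membrane protein that binds WNT ligands, was near background, above it on 4 of 7 wild-type and 3 of 4 knockout arrays. Its levels ran from −5.34 to −2.58 in wild-type arrays and were −4.10, −3.18, −4.31 and −3.80 in knockout arrays. The difference was −0.39 ± 0.48 (limma adjusted p = 0.688), with 0.33 within slide 1 and −1.47 within slide 2.

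Znrf3, the ubiquitin ligase that clears Frizzled receptors, had nearly equal levels in the knockout arrays, −0.50, −0.32, −0.53 and −0.27. The SD of 0.13 among them was exceeded by 95.6% of all features tested. Among wild-type arrays the levels were 0.94, 1.24 and 1.36 in arrays 1, 2 and 4, −0.77 in array 3, and −3.45, −2.42 and −2.93 in arrays 5, 6 and 7. The knockout levels thus lay between separate sets of wild-type arrays. The wild-type arrays with the highest Znrf3 were the same 3 that had the highest Wnt4. The difference was −0.75 ± 1.02 (limma adjusted p = 0.721), −1.50 within slide 1 and 0.37 within slide 2.

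Ctnnb1, the gene of β-catenin, gave different pictures through its 2 probes. The brighter one, A_52_P424585, ran from 3.41 through 4.09 to 6.06 in wild-type arrays, where 6.06 was array 3, and was 4.25, 4.63, 4.43 and 4.35 in knockout arrays. Its difference was −0.58 ± 0.41 (limma adjusted p = 0.473) and was 0.15 ± 0.35 without wild-type array 3. The other probe, A_51_P272046, was at 2.16, 2.35, 1.74 and 1.99 in wild-type arrays 1 to 4 and at −0.21, 0.42 and −0.16 in arrays 5 to 7. In knockout arrays it was at 2.40, 2.52, 2.16 and 2.03, and its difference was 0.26 ± 0.52 (adjusted p = 0.825, every probe tested separately). The probes thus had opposite signs, neither beyond the spread. Wild-type arrays 5 to 7 were low on the second probe and on Znrf3, but not on Axin2.

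**Figure D3:**
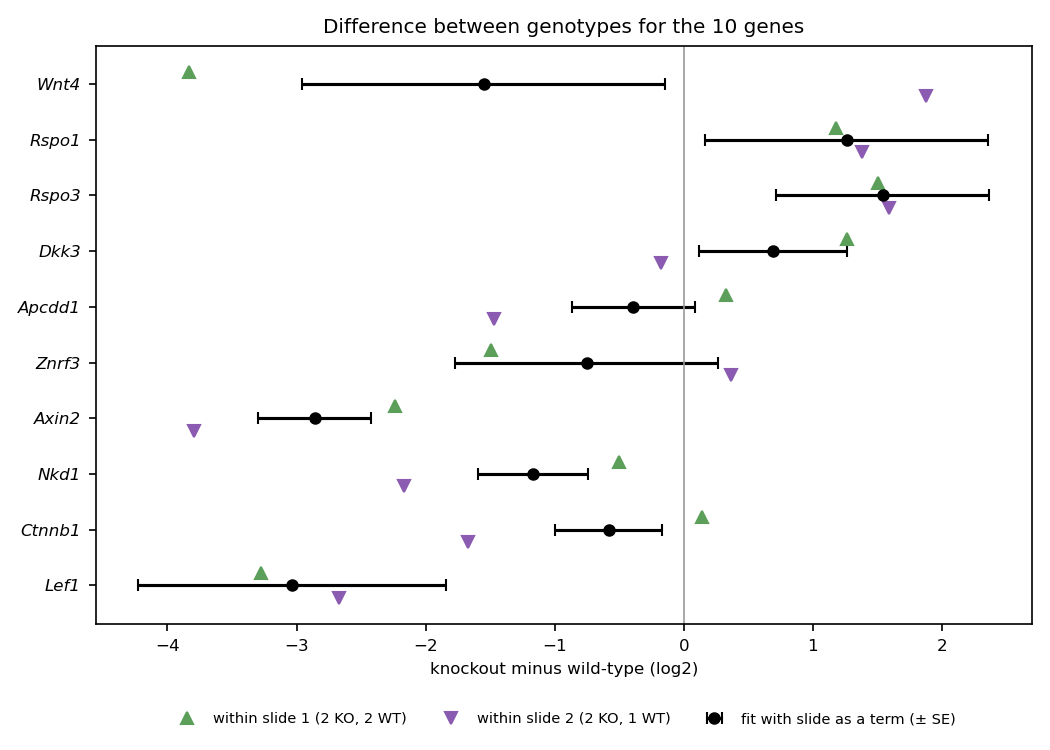
Knockout minus wild-type difference of each gene on the log2 scale, with the fitted value and its SE in black, the difference within slide 1 as an upward and within slide 2 as a downward triangle; Ctnnb1 is its brighter probe. Axin2 lies at −2.86 and is negative within both slides, and Wnt4 is at −3.84 within slide 1 and 1.88 within slide 2.

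Within slides 1 and 2 the difference had the same sign for 5 of the 10 genes, Axin2, Nkd1 and Lef1 as negative and Rspo1 and Rspo3 as positive. Over all features tested 63.2% kept their sign. At an unadjusted p under 0.05, 3 of the 10 were lower, Axin2, Nkd1 and Lef1, and 0 were higher. Over all features tested 10.1% were lower and 8.41% higher by that measure. The median difference was −0.67 over the 10 genes and −0.16 over all features tested. Without wild-type array 3 these medians were −0.18 and −0.060, and without the slide term −0.084 and 0.056. Lef1 passed the filter through its wild-type arrays, and Rspo3 needed its knockout arrays to pass it. The genes were also chosen with earlier results of these data known. These figures thus describe the set and support nothing by themselves.

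**Figure D4:**
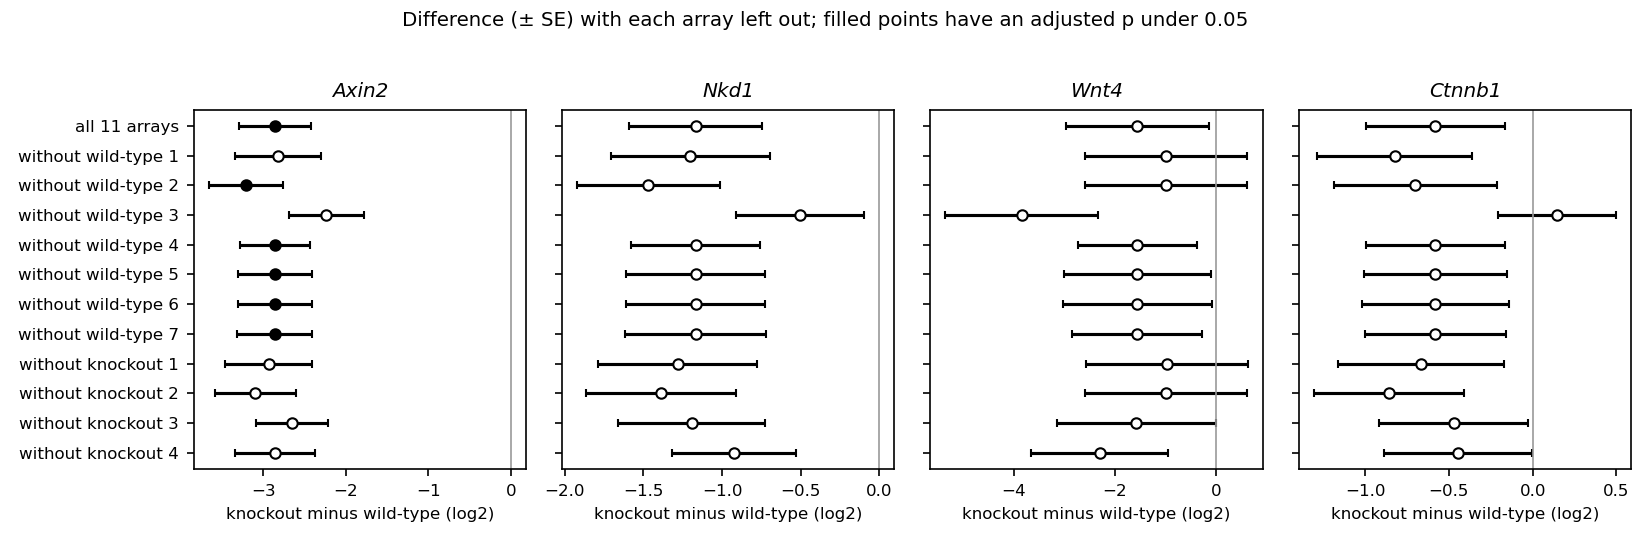
Differences (± SE, log2) of Axin2, Nkd1, Wnt4 and Ctnnb1 with all 11 arrays and with each array left out in turn; filled points have an adjusted p under 0.05, and each panel has its own axis. Without wild-type array 3, the single control of slide 2, Axin2 moves to −2.24, Nkd1 to −0.50, Wnt4 to −3.84 and Ctnnb1 to 0.15.

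The rest of the pathway was taken from a list of 88 other genes, of which 85 had a probe and 71 were tested. None of the 71 passed in limma, while 8 were lower and 5 higher at an unadjusted p under 0.05, a measure met by 18.5% of all features tested. Their median difference was −0.16, the same as over all features tested to 2 decimals. Fitted values were lower for 39 and higher for 32 of them, against 11836 lower and 8927 higher among the 20763 features tested. Ranges did not overlap for 2 of the 71, against 7.36% of all features tested.

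Of 7 other targets of the pathway tested, none passed in limma, and 4 had a lower and 3 a higher fitted value. Tnfrsf19, a receptor of the tumour necrosis factor family and a WNT target, came nearest to the threshold, at −3.37 ± 0.70 (limma adjusted p = 0.0651). Its levels ran from 1.05 through 3.34 to 5.06 in wild-type and from −0.027 to 1.96 in knockout arrays, and overlapped. The transcription factor gene Sp5 stood at −3.64 ± 1.39 (adjusted p = 0.218), above background on 5 of 7 wild-type arrays and 1 of 4 knockout arrays. The growth factor gene Fgf9 was at −3.29 ± 0.999 (adjusted p = 0.142). These 3 were lower at an unadjusted p under 0.05, as were 10.1% of all features tested. Bmp4, Cd44 and Myc, a growth factor, an adhesion receptor and a transcription factor gene, had differences of 1.05 ± 0.51, 0.88 ± 0.40 and 0.51 ± 0.60 (adjusted p = 0.310, 0.282 and 0.675).

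Among nuclear factors, Tcf7, which binds the same DNA motif as Lef1, was at −2.83 ± 0.75 (limma adjusted p = 0.113). Its levels ran from −1.56 to 2.11 in wild-type and from −2.53 to −0.66 in knockout arrays. The β-catenin cofactor genes Pygo1 and Pygo2 were at 1.07 ± 0.33 and 1.88 ± 0.66 (adjusted p = 0.148 and 0.189). The slides differed for Pygo2, with 0.42 in slide 1 and 4.07 in slide 2.

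None of the 9 tested genes of ligand secretion and removal passed in limma. Sfrp1 was higher in every knockout array, between 1.42 and 3.43, than in any wild-type array, between −0.56 and 0.68, with a difference of 2.02 ± 0.52 (limma adjusted p = 0.103). Frzb, a relative of Sfrp1, was at −2.88 ± 0.77 (adjusted p = 0.115), with overlapping ranges. Of the 9 genes, 5 had a lower and 4 a higher fitted value.

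Of the 16 receptor genes tested, 12 had a lower and 4 a higher fitted value, with a median of −0.41. Of all 20763 features tested, 11836 had a lower fitted value, and the median was −0.16. Fzd5 was at −2.52 ± 0.67 and Fzd2 at 2.13 ± 0.62 (limma adjusted p = 0.111 and 0.130). Ror2, a receptor for WNT ligands outside the β-catenin branch, was at −0.78 ± 0.30 (adjusted p = 0.223). It was the other gene of this list without overlap, at −1.80 to −0.94 in wild-type and −2.35 to −2.14 in knockout arrays.

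The destruction complex gene Apc2 was at −1.25 ± 0.32 (limma adjusted p = 0.100), and was the only one of 11 transducer genes with an unadjusted p under 0.05. Among 11 ligand and R-spondin genes and 7 receptor inhibitor genes, 0 reached that level. Of the 20 listed ligand genes 9 were too dim to be tested.

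**Figure D5:**
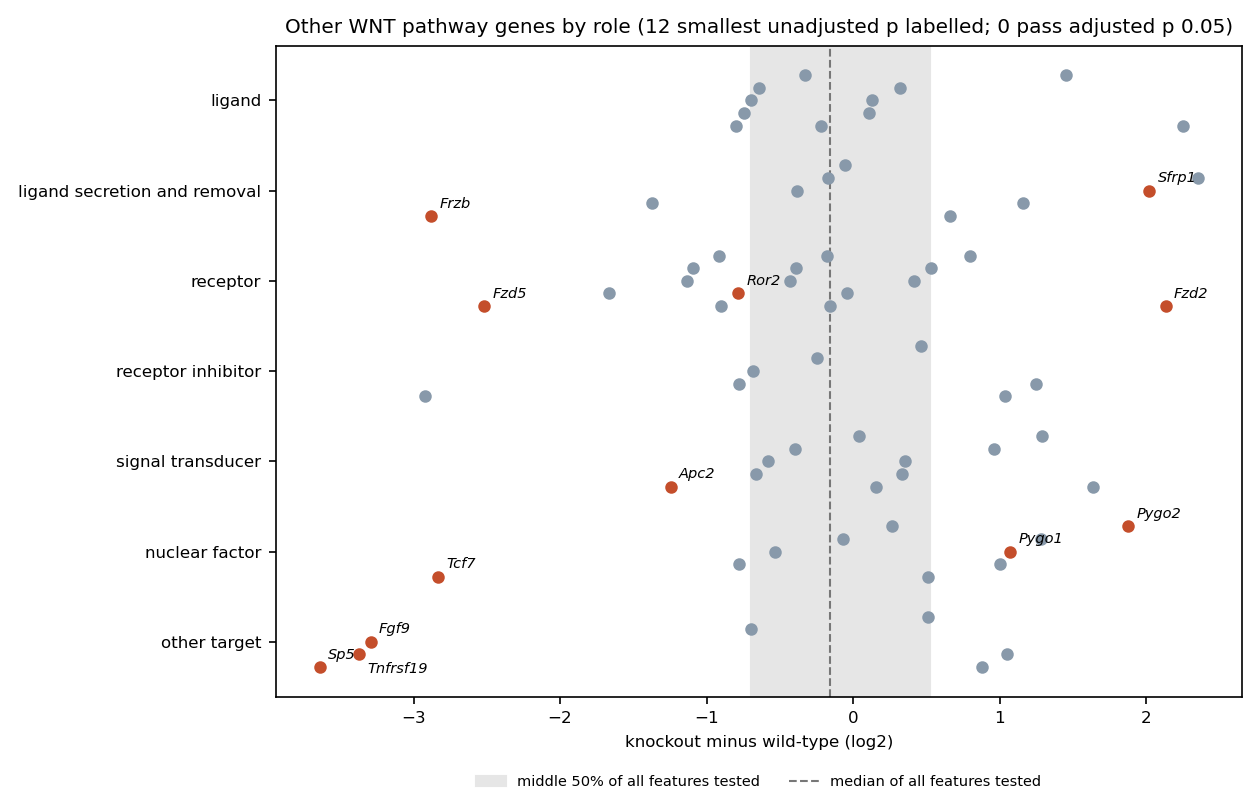
Knockout minus wild-type differences (log2) of 71 other WNT pathway genes by role, with the 12 of smallest unadjusted p in red and named, the median of all features tested as a dashed line and the middle 50% of them in grey. Sp5, Tnfrsf19 and Fgf9 lie lowest, between −3.64 and −3.29, and none of the 71 passes the threshold.

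The genes whose profile over the 11 arrays was most like that of Axin2 were found by the root mean square difference of levels centred on each gene's own mean, over 9293 genes above background on every array. They were Ect2, a regulator of cell division, at 0.39, the phospholipase gene Pla1a at 0.48, the calcium channel gene Cacna1d at 0.51, the RNA-binding protein gene Rbm24 at 0.52 and Ecrg4 at 0.53. Their knockout minus wild-type differences were −2.50, −2.71, −2.78, −1.88 and −3.28 in that order, a direction that follows from choosing them by likeness to Axin2. The nearest to Wnt4 were farther away, Smoc1 at 0.96, Gpha2 and the sterol synthesis gene Fdps at 1.05, and Tmem205 at 1.12. Their differences between genotypes lay between −1.63 and 0.35, and no gene of the set was among the neighbours of Axin2 or Wnt4. Lef1, Rspo3 and Apcdd1 were not searched, since they were not above background on every array.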

How the data were processed

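Sorted cells of 7 wild-type and 4 Star knockout mice were measured on single-colour Agilent arrays, grouped by the labels' genotype, with the slide read from each array's identity. The deposited files hold spot intensity from Agilent Feature Extraction with its background subtraction, per the file headers, under version 10.1.1.1 for slides 1 and 2 and 10.5.1.1 for slide 3. The other deposited columns used, per the file headers, are flags for background, outlier and saturation. A deposited table of log2 values by the authors, of unstated scaling, differed by under 0.01 from the scanner levels less each probe's median for at least 99.8% of probes per array. Its column medians ran from −0.17 to 0.90.

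Outlier spots were left out, spots of a probe averaged, and each array's 75th percentile of log2 signal over 41174 probes subtracted. No probe was saturated (0 on every array). Probes were named through a RefSeq table of GRCm38.p6, where every matching accession led to 1 symbol, 25285 in all. The array designs name mm8 or mm9, so only names were taken from that table. A gene was its probe with the highest mean, tested if above background on at least 4 arrays.

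The comparison used limma 3.58.1 under R 4.3.3 (lmFit, eBayes, slide as a term, two-sided, Benjamini-Hochberg). Arrays are 1 mouse each, and their number limits precision. On simulated data over 20713 genes, the fit called 0% of genes changed 2-fold, 15.7% changed 4-fold and 33.8% changed 8-fold, with 0 false calls. The simulated noise was normal and independent between genes and arrays, without slide effects or outlying arrays. False calls from those were thus not examined. Alternatives concerned slide, sex, the replicate number, background, scaling, filter, probes, weights, the variance prior, outlier spots and each array. The members and lists were chosen with earlier results of these data known. Named were the 10 genes, the 12 other pathway genes with the smallest p and the 5 genes nearest in profile to Axin2 and to Wnt4, of which 1 is not reported here. Sums of marker lists not given in the report were 29.0 to 304 in wild-type and 35.5 to 99.9 in knockout arrays for endothelial cells, 65.7 to 186 and 64.2 to 96.3 for erythroid cells, and 0.569 to 11.1 and 1.45 to 6.59 for kidney and gonad.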

Additional observations from a re-analysis of the deposited data

Results flagged for a closer look

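One array lay far from the others of its group among the 22 groups of levels looked at, 11 probes in each genotype. The brighter Ctnnb1 probe was at 6.06 in wild-type array 3, against a wild-type median of 4.09 and a next highest level of 4.42. Chance marks about 1 in 20 such groups. That array was also the highest wild-type array for Axin2, Nkd1 and Apcdd1, at 1.42, 4.60 and −2.58, and the dimmest of the 11 arrays, and it is the single control of slide 2. It was labelled female, and the knockout arrays of that slide male.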

How the results depend on the processing

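Settings without wild-type arrays 5 to 7, and with sex as a term and array 4 left out, were chosen after seeing the data. Axin2 was lower under all 29 alternatives, between −3.79 and −2.09, with an adjusted p from 0.00285 to 0.228, and 17 of them passed. It missed the threshold within slide 1, within slide 2, with the replicate block (−2.60, adjusted p = 0.0655), with sex as a term with or without wild-type array 4, with median scaling (adjusted p = 0.0530), and without wild-type array 1 or 3 or any single knockout array. Lef1 and Nkd1 were negative under every alternative that measured them. The alternatives are not independent. Leaving out arrays of slide 3, changing the filter, testing every probe or adding the intensity trend cannot move the differences of these genes. Under each of those settings Axin2 stayed at −2.86 and passed, which adds no separate support for its sign. Leaving out wild-type array 3 gives the same difference as slide 1 alone. With normexp background Lef1 was at −1.11 and Rspo3 at 0.0049, against −3.03 and 1.54 as reported. The count of the 10 genes past the threshold was 1 as reported. It was 0 within slide 1, within slide 2, with sex as a term, with sex and array 4 left out, and with median scaling, 4 with array weights (Axin2, Lef1, Rspo3 and Wnt4) and 3 without wild-type arrays 5 to 7 (Axin2, Lef1 and Rspo3). That setting cannot move the differences, which slide 3 does not enter, and it removes the wild-type arrays where Lef1 was lowest and Rspo3 highest. With 1 array left out it was 0 to 1, and the count over all features was 10 to 566 and that of other pathway genes 0 to 4, the 4 being Fgf9, Frzb, Tcf7 and Tnfrsf19 without wild-type array 4.

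The other pathway genes past the threshold, 0 as reported, numbered 1 without the slide term and 1 with slide as a random block, both times Sfrp1. They numbered 3 with the replicate block (Fgf9, Frzb and Tnfrsf19), 5 with normexp background, 3 over genes above background on all 11 arrays, 11 with array weights, 1 with an intensity trend in the prior (Tnfrsf19) and 5 without wild-type arrays 5 to 7. Over all features 173 passed, 48 of them lower. The count was 601 without the slide term, 471 with slide as a random block, 0 within slide 1 and 0 within slide 2, 28 with sex as a term, 78 with sex and array 4 left out, 643 with normexp background, 92 with median scaling, 403 over genes above background on all arrays, 1892 with array weights, 261 with the intensity trend and 532 without wild-type arrays 5 to 7. The cause was not tested.

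Signs turned for some genes that had not passed. Without the slide term Rspo1 was at −0.12, Dkk3 at −0.045, Apcdd1 at 0.34, Znrf3 at 0.46 and Ctnnb1 at 0.15. Within slide 1, which equals leaving out wild-type array 3 for these values, Apcdd1 was at 0.33 and Ctnnb1 at 0.15, and with 1 array left out they ran from −0.80 to 0.33 and from −0.86 to 0.15. Within slide 2 Wnt4 was at 1.88, Dkk3 at −0.17 and Znrf3 at 0.37. Apcdd1 was also at 0.00020 with slide as a random block, 0.081 with sex, 0.11 with sex and array 4 left out and 0.043 with array weights. The labels do not say that equal replicate numbers mark shared litters or days, and their deviations correlated at 0.182, 0.218, −0.00725 and 0.185, so the numbers were not taken as pairs. With the replicate block, which takes the place of the slide term, 1 of the 10 genes passed, Lef1 at −3.13 (adjusted p = 0.0402), and 178 features. The dim signals of Lef1, Rspo3 and Apcdd1 limit what these arrays can show of them.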
